A study of Mus musculus with 9 samples.

Results

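Across the autosomes of mouse nucleus accumbens, 1539 CpGs were chosen because 1 DNA strand read higher than the other in each of 7 libraries. They were taken from 1040084 candidate CpGs, those listed on both strands in each of these whole-genome bisulfite libraries, of which they are 0.148%. A CpG entered the set when the forward minus reverse methylation percentage had 1 sign in all 7 libraries and a mean absolute value of at least 30 percentage points. The members were chosen by these strand differences, so in the 7 libraries their size and sign are a description with no test. Only the contrast of the 2 groups, which the rule did not use, is tested in them. Since each member has 1 sign in all 7 libraries, the contrast of its strand difference is one of size, not of direction.

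The nucleus accumbens is a ventral striatal region of the reward circuit. The series holds 9 libraries from that tissue, 5 labelled Control and 4 labelled Susceptible by phenotype, numbered Control 2, 3, 4, 5 and 8 and Susceptible 2, 3, 6 and 7. The mice were male C57BL/6J animals aged 8 weeks, and the same treatment text, 10 daily social defeats by aggressive CD1 retired breeders, stands on every library, so the labels do not say what the Control mice underwent. Susceptible is a behavioural outcome label, the tissue is a punch of mixed cells, and nothing in the labels states a batch or says whether each library is 1 animal.

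In mammals the 2 cytosines of a CpG face each other on opposite strands, and after replication the maintenance methyltransferase Dnmt1 copies the mark from the old strand to the new one. A CpG methylated on 1 strand only is called hemimethylated. Bisulfite sequencing reads each strand from its own molecules, so the strand levels of a CpG come from separate sets of reads. At imprinted loci the maternal and paternal copies differ in methylation, and a level averaged over both copies is intermediate.

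Libraries listed from 13446563 to 22631489 cytosines, each with at least 10 calls, and 312981171 to 570142104 calls outside unplaced scaffolds. The mean autosomal level was 74.6 to 77.2% on the forward strand and 74.5 to 77% on the reverse strand, a gap of 0.119 to 0.206 points within a library. Control 5 and Control 8 stood apart. Among CpGs at 20 to 80%, the squared difference between strands was 18.4 and 19.7 times its binomial variance there, against 2.38 to 6.10 times in the other 7 libraries. The rule used neither of them. Their values are given as summaries, and singly for some of the named members listed on both strands there. Around gene starts the striatal neuron markers were at 11.6% ± 1.30 (SD, n = 5) in the Control libraries, against 12.2% ± 1.76 (SD, n = 4) in the others. The lists of other cell types are given in the same order of groups and with the same n, as mean ± SD over the starts matched in the reference. Oligodendrocyte markers read 51.3% ± 3.48 and 43.7% ± 3.72, and astrocyte markers 59.4% ± 5.96 and 52.3% ± 6.84. Cortical neuron markers read 23.2% ± 3.52 and 21.3% ± 4.36, microglia markers 79.8% ± 2.41 and 78.8% ± 2.24, and endothelial markers 11.5% ± 1.91 and 11.1% ± 1.54. The glial means were thus lower in the Susceptible libraries for oligodendrocytes and astrocytes, and the part of cell makeup in the results was not tested.

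Of the members, 26 fell within the 250 bases before to 50 after the start of 23 genes in the RefSeq promoter sequences (GRCm38.p6, the same coordinates as mm10). All 40355 candidate positions in those sequences read CG. The stretches below are forward-strand letters that lie before the start site, with each member CpG in capitals. The Gm31036, Tmem267, Plagl1 and Commd1 stretches hold large promoter differences, and the other 3 were picked after their values were seen, as CpGs whose surroundings were unmethylated.

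Gm31036, chr8:95137980-95138091: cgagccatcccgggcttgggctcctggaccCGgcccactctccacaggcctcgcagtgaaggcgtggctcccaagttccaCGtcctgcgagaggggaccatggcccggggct
Tmem267, chr13:119488278-119488339: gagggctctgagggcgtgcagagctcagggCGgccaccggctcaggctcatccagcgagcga
Plagl1, chr10:13090665-13090738: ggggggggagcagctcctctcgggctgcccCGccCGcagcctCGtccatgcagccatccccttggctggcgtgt
Commd1, chr11:22972894-22972955: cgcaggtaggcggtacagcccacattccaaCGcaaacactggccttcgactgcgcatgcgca
Dcun1d1, chr3:35932440-35932501: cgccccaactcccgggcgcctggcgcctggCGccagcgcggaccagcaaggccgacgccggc
Tpm3, chr3:90079429-90079490: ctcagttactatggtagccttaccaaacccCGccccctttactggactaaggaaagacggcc
Rpl41, chr10:128549169-128549209: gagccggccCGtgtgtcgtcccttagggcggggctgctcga

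The 3 Plagl1 members sit within 12 bases of one another and share reads. On the higher-reading strand, the base after the CpG was G in 52.0% of 25 promoter members and in 38.1% of 34978 promoter candidates, and the base before it was G in 44.0 and 41.1%. No test was made of so few.

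The forward strand read higher at 761 members and the reverse strand at 778. The median member differed by 35 points, and 1122 lay between 30 and 40, 255 between 40 and 50, 128 between 50 and 70, and 34 at 70 or more. The median level was 80.7% on the higher strand and 41.8% on the lower. Only 30 members read at least 80% on 1 strand and at most 20% on the other. Every library reached 30 points at 155 members. Just inside the threshold were chr12:17233730 at 30 points, chr16:90383009 at 30 and chr1:163129309 at 30, with higher strands at 85.9, 91.0 and 81.8%. Just outside were chr9:114527512, chr11:12026119 and chr8:12500716, all rounding to 30. Of candidates at 30 points or more with any mixture of signs, 13.5% had 1 sign throughout. That share was 91.5% of 177 at 50 points and 34 of 34 at 70.

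The largest difference was at chr1:141262156, 4950 bp from Gm4845, annotated as a pseudogene. Its forward strand read 1.14, 1.43 and 1.97% in Control 2, 3 and 4, against 1.43, 2.12, 2.62 and 1.58% in Susceptible 2, 3, 6 and 7. Its reverse strand read 94.1, 85.1 and 100% in the Control libraries and 87.0, 97.2, 100 and 100% in the Susceptible libraries. The strands were thus near opposite extremes in every library and the groups overlapped. Forward calls numbered 976 to 1261 per library and reverse calls 23 to 47. In Control 5 the strands read 1.27% (95% Wilson interval 0.69 to 2.32) and 100% (83.2 to 100), and in Control 8 5.08% (4.02 to 6.40) and 100% (92.6 to 100). Such intervals cover counting error only.

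Among members with the forward strand higher, the largest was chr10:22142709 in E030030I06Rik. The forward strand read 100% in all 7 libraries, on 29 to 59 calls. The reverse strand read 9.09, 4.17 and 14.2% in Control 2, 3 and 4, against 6.36, 8.02, 14.7 and 7.91% in Susceptible 2, 3, 6 and 7, on 72 to 173 calls. CpGs within 500 bp averaged 88.7%, close to the forward strand. Control 8 read 100% forward on 14 calls and 14.1% reverse on 78, a difference of 85.9 points.

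The other 8 of the 10 largest had the same shape, with 1 strand at or above 93.6% and the other at or below 13.3% on average. Forward was higher in Cdk8, the Mediator kinase (94.8% ± 5.02 against 6.91% ± 1.28), and in Fat3, a protocadherin of neurons (95.9% ± 3.86 against 8.76% ± 1.57, SD, n = 7). It was also higher in Mapk14, the p38α kinase (96.5% ± 4.45 against 13.3% ± 13.1), and 14707 bp from Dram2 (93.6% ± 4.83 against 6.43% ± 3.11, SD, n = 7). Reverse was higher in Srbd1 (99.1% ± 2.29 against 11.4% ± 3.21) and 3528 bp from Gm33530 (98.6% ± 2.64 against 5.72% ± 10.4, SD, n = 7). It was also higher 46291 bp from Perp (100% in all 7 against 12.1% ± 4.57) and 86554 bp from Mettl25 (99.4% ± 1.72 against 10.9% ± 3.57, SD, n = 7). Of these 10, 9 were listed in at least 1 of Control 5 and Control 8, and each value there had the same direction.

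**Figure D1:**
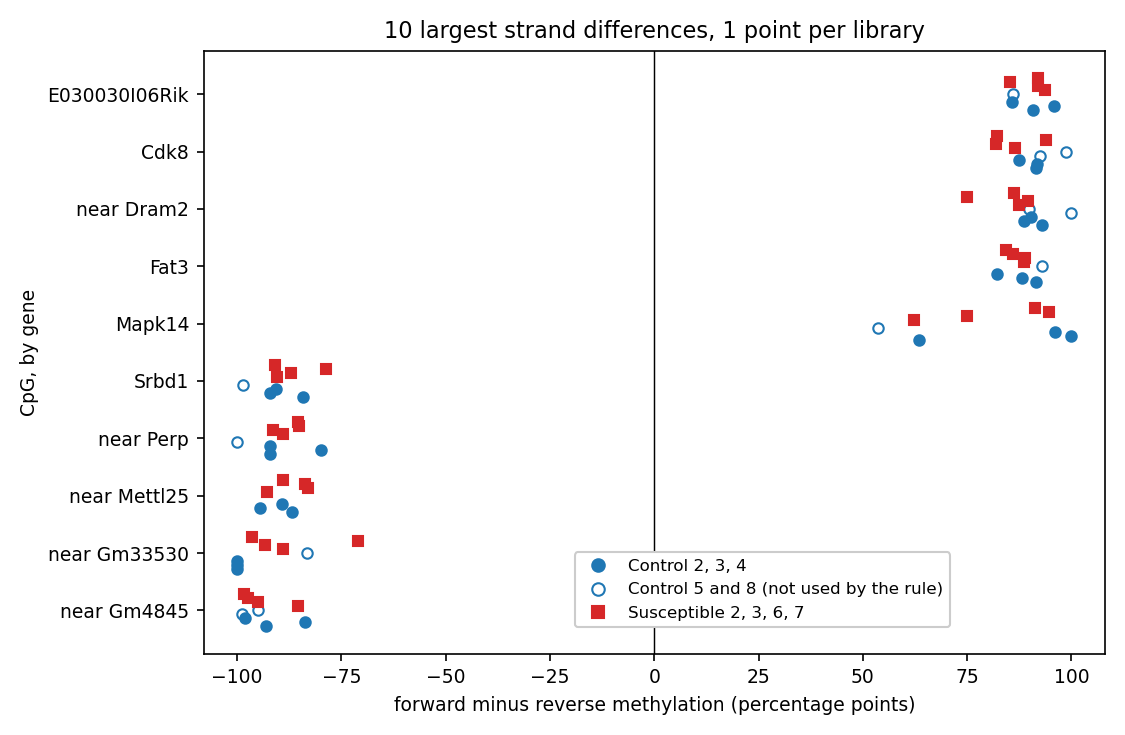
Forward minus reverse methylation in percentage points (x axis) for the 10 members with the largest mean difference (y axis, by gene), 1 point per library. Filled circles are Control 2, 3 and 4, squares the Susceptible libraries and open circles Control 5 and 8, which the rule did not use. Every listed value keeps its member's side of 0, which the rule required of all libraries shown but Control 5 and 8.

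The rule did not use Control 5 and Control 8, so these libraries give readings of the members that did not choose them. In Control 5, 673 members were listed on both strands, and 476 of them (70.7%) differed in the direction of the 7 libraries, 128 the opposite way, and 69 not at all. In Control 8, 626 of 865 (72.4%) had the same direction, 170 the opposite and 69 no difference. Over all candidates listed there, 21.7 and 23.7% had the direction of their own mean in the 7 libraries, and the median candidate had a difference of 0. Only 19.6% of all candidates had a mean level of 20 to 80% in the 7 libraries, against 94.7% of members. Neither these candidate shares nor the called shares below are therefore matched for level. The median difference in the set's direction was 33.3 and 36.6 points. Fisher's exact test of strand by call, adjusted over all candidates listed there, called 349 members (51.9%) in the same direction in Control 5, where 11.2% of all candidates were called. It called 56 in the opposite direction, as it did 9.58% of candidates. In Control 8 it called 487 (56.3%) in the same direction against 12.7% of candidates, and 75 in the opposite one, against 10.7%. These calls rest on counting error within 1 library only. With the chi-square divided by each library's strand disagreement, 1 member was called in each library, against 0.00117 and 0.000712% of candidates.

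The larger the difference in the 7 libraries, the more often its direction recurred. At 30 to 35 points 64.6% of listed members kept it in Control 5 and 62.4% in Control 8. Just below the threshold, at 20 to 30 points, 51.8 and 54.0% of the CpGs with 1 sign in all 7 libraries did. At 50 to 70 points 89.5 and 94.7% did, and at 70 points or more all 17 and all 22 listed members did. Choosing members from 6 of the libraries and reading them in the seventh gave the same direction at 73.7 to 80.5%, with medians of 17.3 to 25 points, below the 30 that chose them. For members at 50 points, 168 of 179 (Susceptible 7) to 176 of 177 (Susceptible 6) kept it in those 2 libraries, and the medians over the 7 were 53.9 to 60.8 points.

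**Figure D2:**
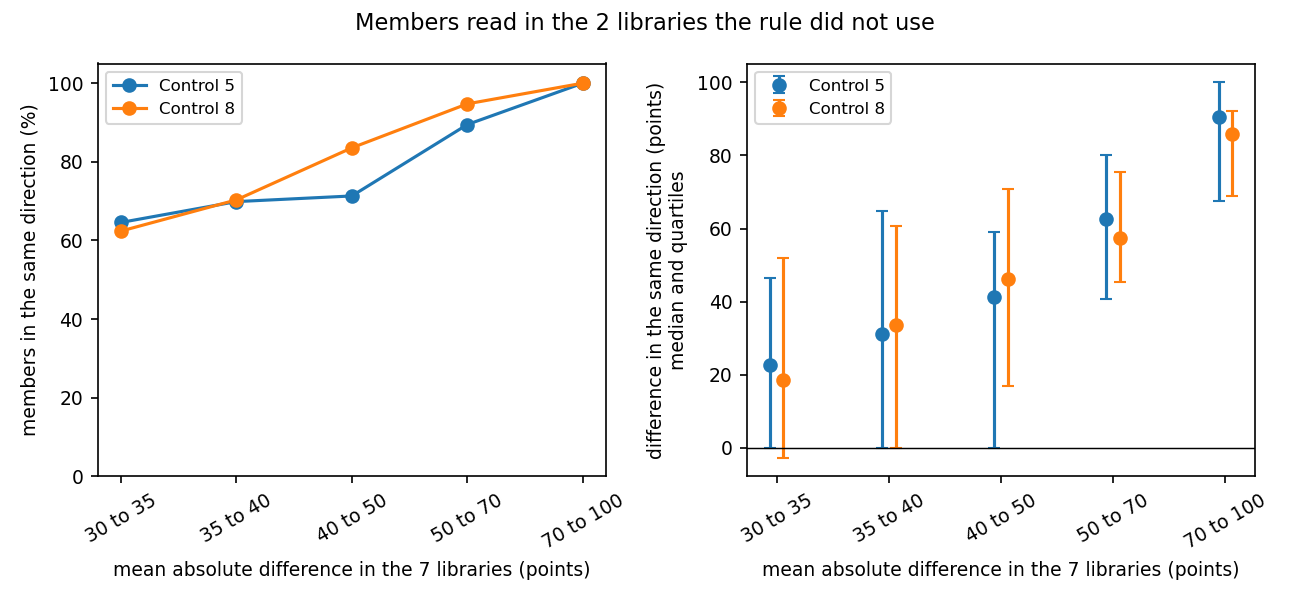
Members read in Control 5 and Control 8 by their mean absolute difference in the other 7 libraries (x axis, points). The left panel shows the percentage with the same direction, the right panel the median and quartiles of the difference in that direction; both rise from the 30 to 35 class to the class of 70 or more, where all listed members kept their direction.

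Coverage set part of the members apart. The median member had 54.1 calls over both strands against 52.4 for candidates. However, 90 members (5.85%) had more than 3 times the candidate median, against 0.261% of candidates and 0.663% of the 202391 other candidates with an intermediate level of 20 to 80%. The calls were also uneven between strands. The lower-reading strand had at least 3 times the calls of the higher one at 125 members (8.12%), and the reverse held at 16 (1.04%). Among the other candidates of intermediate level the shares were 0.592 and 0.606%. The excess was on the lower strand in all 7 libraries at 72 members, with at least 3 times the calls in each, and on the higher strand at 3.

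That pattern grew with the size of the difference. The lower strand had a 3-fold excess at 3.54% of members of 30 to 35 points, at 32.8% of those of 50 to 70 and at 47.1% of those of 70 or more. The largest mean ratio was 45.9. The part of uneven calls in the strand difference was not tested.

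**Figure D3:**
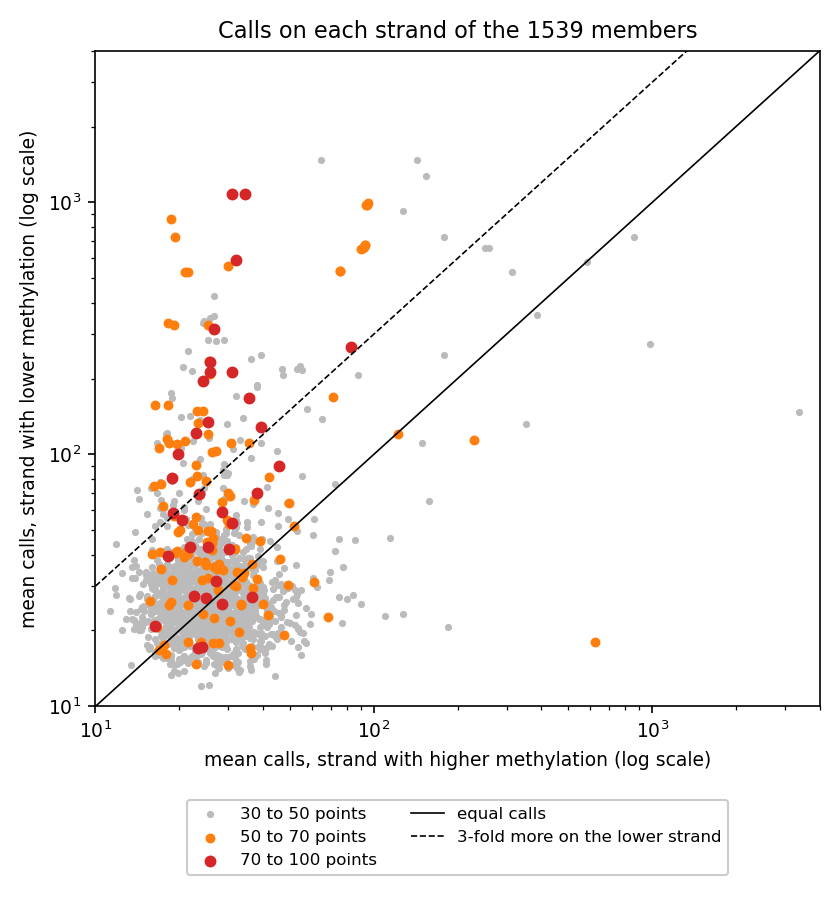
Mean calls over the 7 libraries on the strand with higher methylation (x axis) and on the strand with lower methylation (y axis), both on log scales, for the 1539 members coloured by the size of their strand difference. Large differences extend upward, above the dashed line of 3-fold more calls on the lower strand, at 125 members in all.

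The 3 members of highest mean coverage were chr2:98662629, 39970 bp from Gm33780, and chr17:39847112 and chr17:39845727 in or beside Rn18s-rs5, annotated as a pseudogene. At the first, the reverse strand had 2652 to 5090 calls and the forward strand 107 to 207. The reverse strand read 75, 73.3 and 74.3% in Control 2, 3 and 4, against 74.5, 73.4, 75.1 and 74.0% in the Susceptible libraries. The forward strand read 34.6, 27.1 and 33.9% and 34.1, 32.1, 51.3 and 42.3%. It is 1 of the 16 members in which the higher-reading strand had at least 3 times the calls. Its difference was -44.6 points in Control 5 and -43.1 in Control 8. At chr17:39847112 these libraries read -39.6 and -32.9 points, and at chr17:39845727 -33.7 and -31.9, so all 3 members kept their direction.

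The surroundings of members were less methylated than those of candidates and much like those of other intermediate CpGs. Other CpGs within 500 bp averaged a median of 75.4%, against 87.3% around candidates and 74.8% around the other candidates of intermediate level. The higher strand was the one nearer to this neighbourhood at 1212 of 1537 members (78.9%), by a median distance of 10 points against 30.2 for the lower strand.

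Most members stood alone. Of them, 1263 had no other member within 1000 bp, and 276 (17.9%) did, against 0.805% of candidates. The 276 formed 101 clusters, of which 71 were pairs and 30 had 3 or more members. Adjacent members 2 to 10 bp apart had the same direction in 71 of 71 pairs, those 11 to 50 bp apart in 69 of 71, and those 51 to 1000 bp apart in 19 of 33. The strand difference of any candidate beside a member, taken in the member's direction, had a median of 20.4 points at 2 to 5 bp, 6.52 at 31 to 50 bp, 1.53 at 76 to 100 bp and 0.0757 at 101 to 200 bp. CpGs this close are read by the same molecules and are not separate observations.

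**Figure D4:**
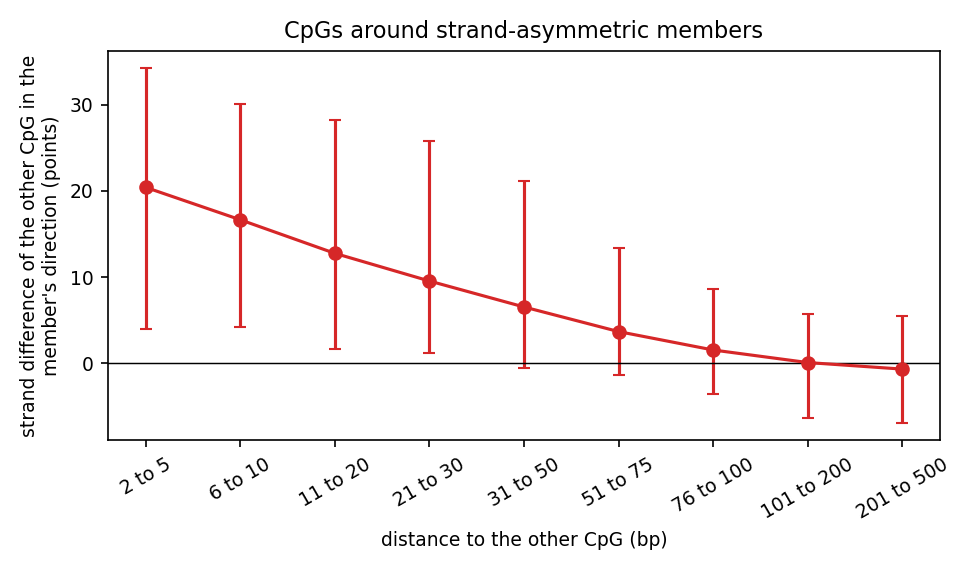
Median and quartiles of the strand difference (y axis, points, positive in the member's direction) of other candidate CpGs by their distance from a member (x axis, bp). The median falls from 20.4 points at 2 to 5 bp to 0.0757 at 101 to 200 bp.

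The largest cluster lay in Grb10, an imprinted gene for an adaptor of insulin receptor signalling that is expressed from the paternal copy in neurons. It held 17 members among 28 candidates at chr11:12026091-12026798. The cluster fell into 3 stretches of alternating direction. In the first, 6 members over 63 bp, the forward minus reverse difference averaged 46.6, 62.3 and 41.6 points in Control 2, 3 and 4, against 28.7, 19.9, 9.86 and 42.9 in Susceptible 2, 3, 6 and 7. In the second, 8 members over 70 bp, it was -54.5, -52.4 and -35.7 in Control, against -70.9, -56.3, -53.8 and -80.4 in Susceptible. In the third, 3 members over 17 bp, it was 9.51, 63.5 and 46.9 in Control, against 18.6, 37.8, 21.8 and 31.6 in Susceptible. The direction thus flipped and flipped back within 708 bp. The rule fixed the sign of each member, so all 7 libraries had to share this alternation. The groups overlapped in each stretch. In the first, only Susceptible 7 reached the Control values.

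In the middle Grb10 stretch the forward strand averaged 4.77% and the reverse strand 62.5%. The 5 largest members inside protein-coding genes of the imprinted, striatal and receptor lists were all here. At chr11:12026329 the forward strand read 16.7, 27.8 and 0% in Control, against 9.09, 0, 11.1 and 0% in Susceptible, on 10 to 23 calls. The reverse strand there read 88.0, 70 and 85.7% and 75, 60, 88.2 and 92.3%, on 13 to 40 calls. The 4 others, at chr11:12026331, chr11:12026359, chr11:12026379 and chr11:12026397, averaged 0.840 to 7.44% forward and 53.7 to 78.0% reverse. Control 8 repeated all 3 directions, at 81.6, -57.1 and 27.0 points over 6, 6 and 3 listed members. Control 5 listed 1, 2 and 3 members at 84.6, 54.5 and 65.7 points, so its middle stretch was opposite. At chr11:12026379 Control 5 read 54.5% forward (28.0 to 78.7) and 0% reverse, on 11 calls each.

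Camk1d, a calcium/calmodulin-dependent kinase gene, had the second cluster, 10 members over 110 bp at chr2:5379246-5379355. The forward strand read higher at all 10, which are all of the candidates in that span. The mean difference was 55.2, 60 and 51.7 points in Control 2, 3 and 4, against 68.5, 45.2, 55.4 and 62.4 in Susceptible 2, 3, 6 and 7. Control 5 gave 65.9 points over 7 listed members and Control 8 gave 79.6 over 10. The reverse strand carried a mean of 601 calls against 68.4 on the forward strand, and read 19.5% against 76.4%. In Grb10 the strand with higher methylation was the deeper one in each stretch, with 51.4 forward and 26.7 reverse calls on average in the first, 17.1 and 24.6 in the second, and 47.0 and 29.8 in the last.

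**Figure D5:**
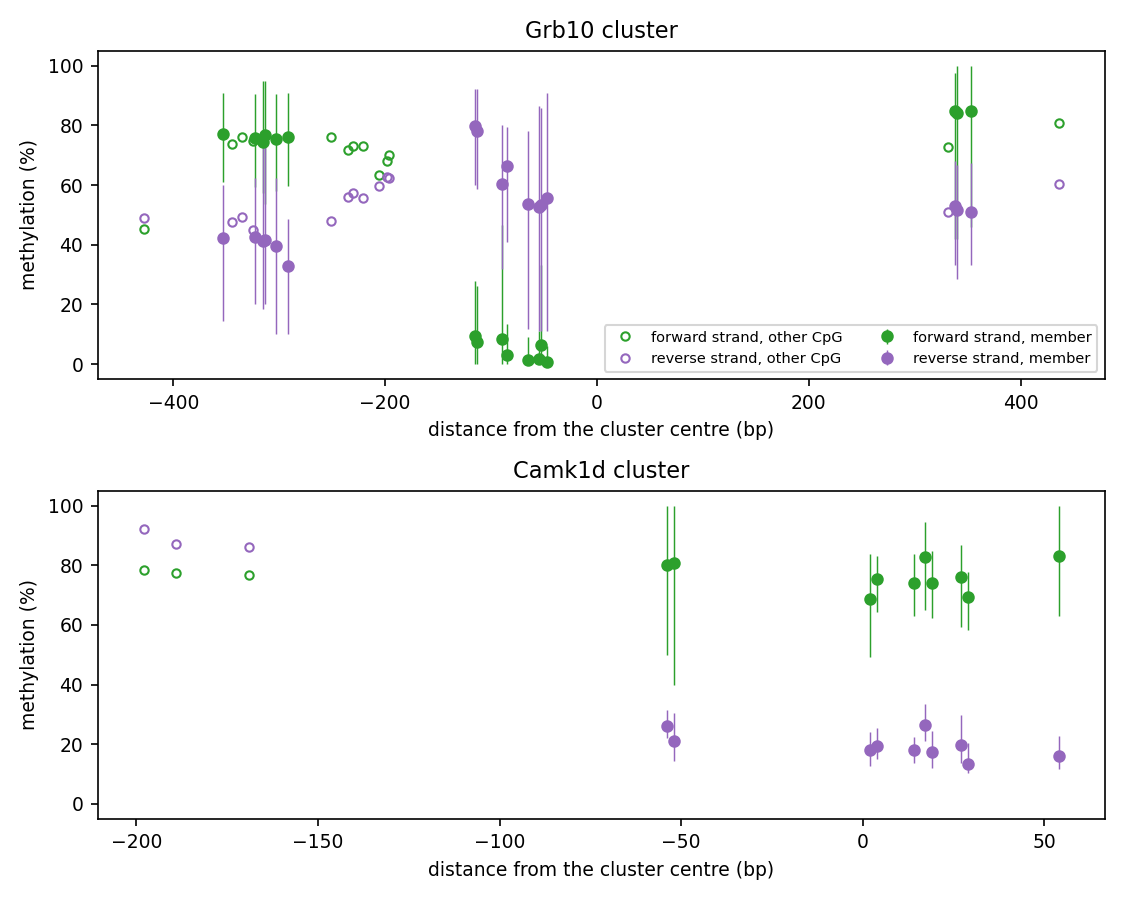
Methylation (y axis, %) by distance from the cluster centre (x axis, bp) on each strand in Grb10 (top) and Camk1d (bottom). Points are means over the 7 libraries, bars run from the lowest to the highest library for members, and open points are other candidates. Among members, the higher strand changes 2 times across Grb10, and in Camk1d it is the forward strand throughout, while the 3 other Camk1d candidates shown read higher on the reverse strand.

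The next 3 clusters were also deeply covered. Gm36876, a predicted gene, had 6 members in 200 bp at chr11:109011773-109011972, 3 in each direction. The 3 forward-higher members had 19.1 to 25.4 forward calls on average and 258 to 326 reverse calls. Of the 3 reverse-higher members, a pair had 657 forward calls each against 259 and 251 reverse calls, and the other had 357 and 385. In or beside Rn18s-rs5 lay 6 members over 2072 bp at chr17:39845042-39847113, 1 forward higher and 5 reverse higher, among 216 candidates and on 733 and 550 calls. Jarid2, a cofactor of the Polycomb complex PRC2, had 5 in 24 bp at chr13:44869632-44869655, all forward higher at 94.2 against 42.9%, on 25.7 forward and 296 reverse calls. Other clusters also held 5 members, that in Cdk8 among them, and Jarid2 was taken for its larger mean difference, 51.3 points against 47.1 in Cdk8. In Control 5 and Control 8 the Jarid2 mean was 45.8 and 70.9 points. Among the 30 clusters of 3 or more, 25 had 1 direction, and 10 of those had at least 3 times the calls on the lower strand.

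A looser concentration ran over 70267 bp at chr1:88237198-88307464, through Mroh2a and Hjurp to Trpm8, chosen after its values were seen. Hjurp is the chaperone that loads the centromeric histone and Trpm8 is the cold-sensing channel. Its 17 members, 11 of them at 50 points or more, were spaced by a median of 2156 bp and mixed in direction, 11 forward and 6 reverse. They were 2.93% of the 580 candidates there. Those candidates had a median of 154.5 calls, against 52.4 over all, and the members themselves 85.6, and the lower strand was the deeper at 14 of the 17 members. In Control 8, 13 of 14 listed members had the same direction, and in Control 5, 5 of 8.

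Members were less often genic than candidates. Of the 1539, 60.6% lay inside a gene (95% Wilson interval 58.1 to 63.0) against 72.3% of candidates and 70.8% of the other candidates of intermediate level. Within 1000 bp of a gene end lay 14.5% (12.8 to 16.3) against 21.2% of candidates and 14.8% of the intermediate ones. The intervals treat members as separate observations, which those in clusters are not. Outside genes and beyond 1000 bp lay 35.5% against 23.9 and 25.8%. Among members at 50 points or more, 48.1% were inside a gene. In genes of 1 known strand, the coding-sense strand read higher at 344 members and the opposite strand at 375, 47.8% against 50% of candidates. By gene family, 3 members lay among 300 candidates in Vmn genes, and 0 among 570 in Olfr, 1883 in ribosomal protein and 856 in Hox genes. There were 12 among 11058 in Zfp genes, 2 among 1815 in Pcdh genes and 177 among 119957 in Gm or Rik genes. The share of members over all candidates was 0.148%, and the families were not tested against it. By chromosome, members ran from 1.03 per 1000 candidates on chromosome 15 to 1.95 on chromosome 13.

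Imprinted genes held 33 members. Of the 20 listed symbols 19 matched, Zac1 being an older name of Plagl1, and 8 had a member inside or within 5000 bp. The 33 were 3.63% of the 908 candidates there and 6.31% of the 523 with an intermediate level, against 0.148 and 0.715% over all candidates. Grb10 gave 17 of the 33, and no other gene exceeded 4 members. Members near each other share reads, and Igf2r and Airn share 1 member, so neither count is one of independent events. Of 26928 autosomal genes with candidates in the range of the matched imprinted genes, 6 to 140 each, 3.23% had a member, against 8 of 19 (42.1%). Only the range was matched, since the imprinted genes had a median of 42 candidates against 23. The imprinted genes also had more candidates of intermediate level, a median of 20 against 3. The striatal neuron list had 1 member in 868 candidates, in Bcl11b, and the receptor and methylation machinery list had 1 in 1927, in Ntrk2, the BDNF receptor.

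Plagl1, an imprinted zinc finger gene, had 4 members 125 to 291 bp before its start. The printed trio read higher on the reverse strand. At chr10:13090695 the forward strand read 38.5, 23.1 and 40.9% in Control 2, 3 and 4, against 29.6, 47.4, 14.3 and 14.3% in the Susceptible libraries. The reverse strand read 88.2, 80 and 76.9% in Control, against 57.9, 57.1, 41.7 and 65.2% in Susceptible. The test between groups of the strand difference gave no call here (limma, adjusted p = 0.826). At chr10:13090699 the means were 28.8% forward and 64.9% reverse. The fourth, at chr10:13090541, went the other way, 73.9% ± 10.6 forward and 42.4% ± 9.84 reverse (SD, n = 7). That CpG lies before the 250-base window. Control 5 listed the printed trio, at -44.0, -55.6 and -40.7 points on 17 to 36 calls a strand, in the same direction. Control 8 listed only the fourth, at -34.8 points on 21 forward and 29 reverse calls, which is opposite to the 7 libraries.

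The remaining imprinted members each averaged between the extremes on both strands. Zrsr1, an imprinted splicing factor gene inside an intron of Commd1, had 3, all reverse higher, 75.1% against 39.2%. The member chr11:22972602 had no direction in common with Control 5, which read 39.9 points on 56 forward and 12 reverse calls, or with Control 8, which read 0% on both strands. The other 2 lie in the Commd1 promoter window and were listed on both strands in neither library. At chr11:22972924, 1 of them, the forward strand read 36.8, 33.3 and 59.1% in Control, against 54.0, 48.1, 37.9 and 27.9% in Susceptible. The reverse strand there read 80, 81.8 and 100% in Control, against 68.8, 76.5, 43.5 and 93.3% in Susceptible. Impact had 3, all forward higher, and Gnas, which encodes the stimulatory G protein subunit, had 3, all reverse higher. H19, a maternally expressed noncoding RNA, had 2 at 2229 and 2639 bp, forward higher at 62.0 against 28.8% and 84.4 against 49.0%. The first was reversed in Control 8, at 0% on 13 forward calls and 100% on 27 reverse calls, and the second kept its direction in Control 5, at 81.7 points. Igf2r and the antisense RNA Airn shared 1, at 89.3 against 57.0%. The Impact, Gnas and Igf2r members were listed on both strands in neither Control 5 nor Control 8. None was found at Igf2, Peg3, Peg10, Mest, Snrpn, Ndn, Kcnq1ot1, Meg3, Dlk1, Nnat or Sgce, which had 6 to 59 candidates each.

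The other large promoter members were not in listed genes. In the Gm31036 window, which lies inside the kinesin gene Kifc3, chr8:95138060 read 75.8, 96.4 and 73.9% forward in Control, against 81.2, 78.9, 77.5 and 42.9% in Susceptible. Its reverse strand read 17.4, 31.2 and 50% in Control, against 12.8, 14.3, 0 and 8.00% in Susceptible, on 10 to 39 calls. The CpG at chr8:95138010, 50 bp away, averaged 71.2% ± 18.5 forward and 21.5% ± 20.3 reverse (SD, n = 7). Control 8 read 60.9 and 26.4 points at this pair, in the same direction. At Tmem267, chr13:119488308 averaged 51.3% ± 20.1 forward and 9.18% ± 9.55 reverse. Past the start of Gm40270, chr12:12725274 averaged 73.5% ± 17.9 and 27.4% ± 14.3, and past that of Gm34766, chr16:32698710 averaged 40% ± 13.5 and 78.3% ± 11.6 (SD, n = 7). Gm40270 read 93.3 points in Control 5, in the same direction. Gm34766 read -5 in Control 8, at 95% on 20 forward calls and 100% on 10 reverse calls. Its sign was the same, but the low forward level of the 7 libraries did not recur there.

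A small set lay in unmethylated surroundings. It is part of the 325 members, of 1537, whose lower strand was the one nearer to the neighbourhood. At 23 members the CpGs within 500 bp averaged under 5% methylation, as in CpG island promoters, and there were a median of 58 such CpGs. This set was singled out after its values were seen. The higher strand read 30.1 to 42.7% and the lower at most 3.14%. All 23 stood alone and 22 were in a gene or within 1000 bp of one. Neighbourhoods under 5% surrounded 1.49% of members, 12.6% of all candidates and 0.0331% of the other candidates with a level of 20 to 80%. Of the 23, 20 had a mean level under 20% themselves, so the last share is not one of matched CpGs.

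In Usp5, a ubiquitin peptidase gene, chr6:124829333 had a forward strand at 0% in all 7 libraries, 0 of 318 calls, which allows up to 0.943%. The reverse strand read 31.6, 9.09 and 38.9% in Control 2, 3 and 4, against 17.1, 30, 62.1 and 42.3% in Susceptible 2, 3, 6 and 7, so the level varied widely. With the forward strand at 0%, the rule required the reverse strand to be above 0 in each of these libraries. Control 5 read 25.9% (13.2 to 44.7) and Control 8 27.6% (14.7 to 45.7) on that strand, and both read 0% on the other, on 81 and 60 calls. The CpGs around it averaged 0.996%.

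Tpm3, a tropomyosin gene, also recurred. At chr3:90079459 the forward strand was at 0 of 239 calls, which allows up to 1.26%. The reverse strand read 13.3, 50 and 33.3% in Control, against 30, 40.7, 46.2 and 7.14% in Susceptible, on 12 to 27 calls. Control 5 read 88.2% (65.7 to 96.7) on the reverse strand and 0% on the forward, and Control 8 93.3% (70.2 to 98.8) and 23.8% (10.6 to 45.1).

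Dcun1d1, a neddylation factor gene, did not recur. At chr3:35932470 the reverse strand was at 0 of 286 calls in the 7 libraries, which allows up to 1.05%. The forward strand read 21.1, 10 and 54.2% in Control, against 20, 64.3, 24.1 and 33.3% in Susceptible. Both strands read 0% in Control 5 and Control 8, on 27 and 54 forward calls. Over the 23, 9 of 12 listed in Control 5 and 6 of 10 in Control 8 had the same direction, and 3 in each read no difference.

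No member's strand difference was called different between the groups. The test was limma on the log odds ratio of the strands, 3 Control against 4 Susceptible libraries, adjusted over all 1040084 candidates, of which 0% were called. At an unadjusted p under 0.05 were 163 members (10.6%) and 6.65% of candidates, and limma on percentage points also called 0. Values of the groups did not overlap at 114 members (7.41%), against 4.27% of candidates. Equal values counted as overlap, and 63.3% of candidates had a difference of 0 in at least 1 library, which no member has. The 2 shares are therefore not on equal terms. The smallest p values, all missing the threshold at an adjusted 0.717 by limma, belonged to chr12:12725274 in Gm40270, chr15:39847891 in Dpys and chr17:25530698 in Gm33801. In Gm40270 the difference was 65.8 points ± 11.4 (SD, n = 3) for Control and 31.3 ± 10.8 (SD, n = 4) for Susceptible. In Dpys, the dihydropyrimidinase gene, it was 47.9 ± 11.4 and 22.7 ± 5.84, and -4.42 in Control 5. In Gm33801 it was 50.2 ± 11.5 and 15.8 ± 8.88, and 45.0 in Control 8. The member medians were 36.5, 42.2 and 42.9 points in Control 2, 3 and 4, against 32.4, 33.8, 36.4 and 34.9 in Susceptible 2, 3, 6 and 7. Strand disagreement moved with them, at 3.26 to 6.10 times the binomial variance in Control, against 2.38 to 4.45 in Susceptible, and its part in the medians was not tested.

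For methylation summed over the strands, no member was called with all 7 libraries. A quasi-binomial model with limma's moderated dispersion called 4 of 1010472 candidates (0.000396%) and 0 members, with 114 members (7.41%) and 6.80% of candidates at an unadjusted p under 0.05. Limma on percentage points called 0. The groups did not overlap at 88 members (5.72%) against 5.10% of candidates. The smallest member values, all missing the threshold, were for chr17:39846671 and chr17:39847112 at Rn18s-rs5 and chr12:78351134 in Gphn, the inhibitory synapse scaffold gephyrin. At the first of these, Control was at 36.7% ± 8.98 (SD, n = 3) and Susceptible at 25.9% ± 3.07 (SD, n = 4), with an adjusted p of 0.541 by the quasi-binomial model with limma's dispersion. The second read 22.6% ± 4.80 and 16.5% ± 1.09, and Gphn 34.4% ± 7.34 and 26.1% ± 3.92. In Control 5 and Control 8, which were not in this test, the strands differed in the set's direction at all 3. The differences were 49.2 and 47.1 points at the first and -82.1 and -70.4 in Gphn. At the first, the deeper strand of both read at most 20.4%, against 25.2 to 40.1% in Control 2, 3 and 4. The Susceptible libraries read 17.9 to 25.1% there. In Gphn the deeper strand read 14.7 and 12.9%, against 21.3 to 33.7% in Control 2, 3 and 4. The Susceptible libraries read 18.65 to 24.9% there. At chr17:39847112 Control 5 lay among Control 2, 3 and 4 on the deeper strand, and Control 8 below them at 14.2%. Leaving out 1 library changed the calls on the level. On the deeper strand, Control 2 was the lowest of Control 2, 3 and 4 at all 3 members. Susceptible 7 was the highest Susceptible library at chr17:39846671 and in Gphn. Without Control 2 the quasi-binomial model called 602 of 1003882 candidates (0.060%) and 5 members. They were these 3, chr17:39845710 beside Rn18s-rs5 and chr17:39848789 in AY036118, the last 2 named after their values were seen. All 5 were lower in Susceptible, with a Susceptible minus Control level of -17.7 to -8.35 points. Without Susceptible 7 it called 374 of 1002993 candidates (0.0373%) and 3 members, those in Gphn and AY036118 and chr17:39846671, at -12.3 to -9.89 points. Without any of the other 5 libraries it called 0 members. A miss at 3 against 4 libraries does not show that the groups are alike.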

How the data were processed

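Whole-genome bisulfite libraries were made from nucleus accumbens DNA with a low-input kit, per the labels' protocols; Bismark, Bowtie, Picard and mm10 are named in the submitters' processing notes, without versions. Per the file headers, the deposited tables give for each strand of a CpG the count of calls with the percent read as C or as T; the authors listed cytosines with at least 10 calls. Methylated calls were recovered as count times percent, whole within rounding. No column was left unmapped.

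Members and lists were chosen with earlier results of these data known. Fisher's exact test (scipy 1.17.1) was adjusted by Benjamini-Hochberg in Control 5 and Control 8. Groups were compared with limma 3.58.1 (R 4.3.3) on strand log odds with 0.5 added to each count and with a quasi-binomial model using limma's dispersion formulas; scripts were tested on simulated data. Members were linked at 1000 bp, and neighbourhoods were 500 bp to each side. RefSeq GRCm38.p6 tables gave gene bounds, 31396 autosomal promoter windows, and no exons, so exon, intron and UTR were not assigned. Named members were the 5 largest in each direction, the 5 fullest clusters, the 8 largest in promoter windows, the 3 smallest p per group test, the 3 on each side of the threshold, the 3 deepest and the 5 largest in listed genes; others are said to be chosen afterwards. Labels do not say that libraries are separate animals, so p-values of the group tests measure the spread between these samples. Those of Fisher's exact test cover counting error within 1 library only.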

Additional observations from a re-analysis of the deposited data

Results flagged for a closer look

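In 62 groups of 4 or 5 values, 4 had a library far from the others, and chance flags about 1 group in 20. At chr8:95138060 in Kifc3, Control 4 differed by 23.9 points against 58.4 to 65.2 in the other 3 Control libraries listed. At chr11:12026397 in Grb10, Control 4 read -11.1 points against -60.6 to -53.6 in the others listed. Near Gm33530 at chr15:84161331, Control 8 read -83.3 points where the other 3 listed Control libraries read -100. In Gm33801 at chr17:25530698, Susceptible 3 differed by 28.9 points against 10.3 to 13.3 in the other Susceptible libraries.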

How the results depend on the processing

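The count of strand-asymmetric CpGs moved with every change of threshold: 5807 at 20 points, 417 at 40 and 162 at 50. It was 130 with 20 calls on each strand in every library, where candidates fell to 47337 and members were 0.275% of them, and 376 over all 9 libraries, where candidates fell to 249115. Of the 376, 243 were among the 1539, of which 435 were listed in all 9. Without 1 library it was 2350 (without Susceptible 6) to 2693 (without Susceptible 7), where fewer libraries had to share a sign and the candidates rose to 1073152 to 1386212. Taking the size from pooled calls, with 1 sign in all 7 libraries still required, gave 1398. Leaving out CpGs above the 99th percentile of coverage gave 1330. Members called in Control 5 and Control 8 fell from 349 and 487 to 1 and 1 with the scaled chi-square, and were 167 of 266 and 291 of 472 listed at 20 calls, and 76 of 93 and 102 of 117 (81.7 and 87.2%) for members at 50 points, where fewer members were tested.

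Calls between groups for the strand difference stayed at 0 under every alternative, each replicate left out included. For the level they were 0 except without Control 2 (5 members, with 602 candidates or 0.060%) and without Susceptible 7 (3, with 374 or 0.0373%), a range of 0 to 5, against 4 candidates with all 7 libraries. The other 5 omissions called 0 to 72 candidates. The cause was not tested. The replicate block, on the numbers 2 and 3 that both groups share, gave 0 calls for each. The same-numbered libraries correlated at -0.000236 and -0.00142 in strand difference and 0.0100 and 0.000745 in level. The labels do not say what a shared number means, and correlations of 2 pairs over single CpGs cannot settle it.

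The share of members near another member was 15.5% at 100 bp, 22% at 10000 bp and 34.0% for members at 50 points. The share near a gene end was 22.8% at 2000 bp, 6.79% at 50 points and 10% with 20 calls. The share inside a gene was 48.1% at 50 points and 50.2% for protein-coding genes only. Median coverage was 79.6 calls at 50 points and 52.0 to 55.3 with each replicate left out. Strands of members carried medians of 22 to 34 calls per library, and most members lie near the threshold, where direction recurred least. The part of depth in that recurrence was not tested.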

Other observations

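Grouped by features seen after the values were known, members differed in how often their direction recurred in Control 5 and Control 8. Of the 90 members with more than 3 times the candidate median of calls outside the imprinted list, 40 at 50 points or more, 72 and 81 were listed and 90.3 and 95.1% had the same direction, by a median of 50.5 and 60.6 points. Of the 33 members at imprinted genes, 8 of 11 and 15 of 18 did. Of the 44 members in neighbourhoods under 20% that are in neither set, 11 of 18 and 13 of 17 did. The other 1372 members, with 115 at 50 points or more, kept their direction at 68.5 and 69.6%, by a median of 31.4 points in each library. These are descriptions with no test.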
